A study of Mus musculus with 69 samples.

Results

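RNA from the pituitaries of 8 older female mice, 4 WT and 4 heterozygous Zeb1_200H, was compared over all genes, and these are 8 of the 69 libraries of the series. The libraries were taken by their tissue, age and genotype labels, and the comparison was picked with earlier results of these data known. All 8 mice were on a C57BL/6J background, were 28 to 36 weeks old, had been through a breeding trial with a WT male, and were killed at proestrus, the cycle stage at which luteinizing hormone surges. Zeb1_200H mice (200H below) carry 1 normal Zeb1 allele and 1 knock-in allele with point mutations in the predicted miR-200a and miR-200b sites of the 3′ UTR, in every cell of the body. The knock-in line comes from 2 embryonic stem cell clones and their intercross, and the labels do not say which clone an animal descends from. The series also holds 3 older pituitaries of homozygous Zeb1_200M mice (200M below) and a cohort of virgin females of 8 to 12 weeks, with 3 WT and 4 200H pituitaries, which are used here for side-by-side values. The question was which genes differ in the pituitary when the sites of 1 Zeb1 allele are mutated.

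MicroRNAs of the miR-200 family pair through a short seed near their 5′ end with matching sites in the 3′ UTR of messenger RNAs and lower the amount of those messages. Their best known targets are Zeb1 and Zeb2, transcription factors that bind E-boxes of the form CAGGTA or CAGGTG and repress epithelial genes, among them the transcripts from which the miR-200 microRNAs are made, so that each side holds down the other. The anterior pituitary is an epithelial gland of hormone cells named for their products: gonadotropes make Lhb, Fshb and Cga, lactotropes Prl, somatotropes Gh, corticotropes and the melanotropes of the intermediate lobe Pomc, and thyrotropes Tshb.

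The 5 mature microRNAs whose seeds match sites of the mutated kinds fall into 2 groups by seed, and they are shown because every count of sites below rests on these seeds. The sequences are from RefSeq (GRCm38.p6), with bases 2 to 8, the seed, in capitals. The first 3 share one seed and the last 2 the other.
mmu-miR-200b-3p (chr4:156055685-156055706, minus strand): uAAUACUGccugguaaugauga
mmu-miR-429-3p (chr4:156053916-156053937, minus strand): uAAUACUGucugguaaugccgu
mmu-miR-200c-3p (chr6:124718324-124718346, minus strand): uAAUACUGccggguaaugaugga
mmu-miR-200a-3p (chr4:156054911-156054932, minus strand): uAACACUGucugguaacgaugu
mmu-miR-141-3p (chr6:124717917-124717938, minus strand): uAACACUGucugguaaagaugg

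The E-boxes are shown in the promoters of 6 of the most clearly lowered genes, each as 30 bases in the direction of transcription from RefSeq (GRCm38.p6), with 1 match to CAGGTG, or to its reverse complement CACCTG, in capitals. Rab25 has its match 64 bases before the annotated start, Ap1m2 81, Cdcp1 205, Epcam 187, Tmc4 35 and Arhgef5 67 bases before it. A match is a stretch of letters and not a measured binding site.
Rab25 (chr3:88548326-88548355, minus strand): catcgctccaccCACCTGtgccccaggtgc
Ap1m2 (chr9:21312397-21312426, minus strand): gaccgtgcctctCACCTGgcggcctcccct
Cdcp1 (chr9:123216226-123216255, minus strand): cctcaaccagcaCACCTGaacagcggaagg
Epcam (chr17:87635780-87635809, plus strand): gccagtagggccCACCTGctggaggaccgg
Tmc4 (chr7:3677571-3677600, minus strand): tcacctagtggcCAGGTGcagacctgtagc
Arhgef5 (chr6:43265565-43265594, plus strand): tccctgtttcctCACCTGaaacttccttgg

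Sites for the microRNAs themselves are shown for 3 of the raised genes with at least 2 perfect 8mer sites in their 3′ UTR. Each line holds 30 bases of GENCODE M21 transcript on GRCm38 with the 8mer in capitals. Gpm6a carries 2 sites of the miR-200b type, and Dennd5b and Atp8a2 each carry 1 of the miR-200b and 1 of the miR-200a type.
Gpm6a, miR-200b type (chr8:55060155-55060184, plus strand): agaaaaacaatCAGTATTAatggaccaaat
Gpm6a, miR-200b type (chr8:55060554-55060583, plus strand): tctgatatatgCAGTATTAaagatattgag
Dennd5b, miR-200b type (chr6:148989445-148989474, minus strand): cttatatatttCAGTATTAgcacatcttta
Dennd5b, miR-200a type (chr6:148988738-148988767, minus strand): tggagtgagttCAGTGTTAgatgtgcttaa
Atp8a2, miR-200b type (chr14:59641569-59641598, minus strand): gatttctagatCAGTATTAtttttcccatc
Atp8a2, miR-200a type (chr14:59647757-59647786, minus strand): tttgttgcacaCAGTGTTAacagttttgtc

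The 8 libraries held 5265108 to 12957678 counts in WT and 4919587 to 8801136 counts in 200H, WT replicate 3 and 200H replicate 3 being the shallow ones. Levels are given as counts per 1000000 scaled counts (CPM). The first principal component, with 41.4% of the variance, separated the genotypes. The second, with 18% of it, set WT replicate 4 and 200H replicate 2 apart from the others. The immediate early genes, which cells switch on within minutes of a stimulus, differed between animals of 1 genotype: their 23 members summed to 821, 6381, 3791 and 681 CPM in WT replicates 1 to 4 and to 2675, 693, 3246 and 3655 CPM in 200H replicates 1 to 4. Of these members 0 were called by edgeR or voom and 1 was lowered by DESeq2, with 4 at an unadjusted p under 0.05. The pituitary hormone genes were abundant in every library, Pomc at 0.375% to 1.13% of the counts and Gh at 8.92% to 12.2%.

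200H replicate 1 stood apart in genes of the intermediate and posterior lobes. Pomc was at 8660.4, 8975, 9192 and 11847 CPM in WT replicates 1 to 4 and at 3692, 9419.6, 10338 and 8731 CPM in 200H replicates 1 to 4. Pax7, the factor that defines melanotropes, was at 15.3, 45.8, 65.5 and 62.8 CPM in the 200H libraries against 40.8 to 48.7 CPM in WT, and Scn7a, a sodium channel gene, at 1.83, 49.1, 46.3 and 45.3 CPM against 34.8 to 51.8 CPM. The posterior lobe hormone Oxt was at 0.228 CPM in 200H replicate 1 and at 3.76 to 8.53 CPM in the other 200H libraries. In whole tissue, fewer cells of a type and less RNA per cell cannot be told apart. None of these genes was called, and the fits include this library.

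**Figure D1:**
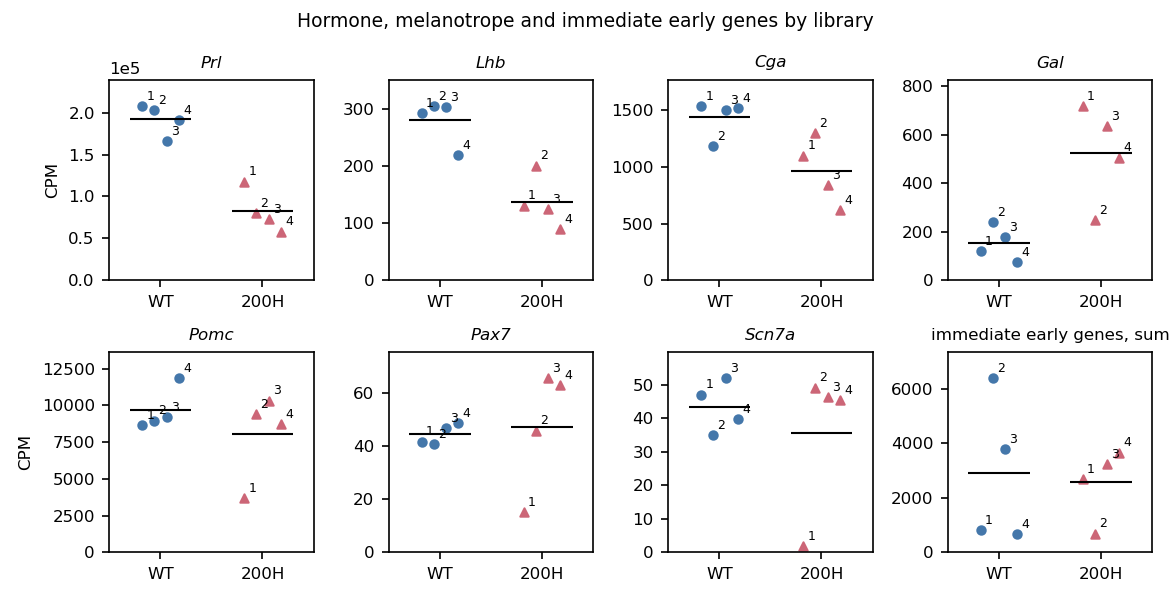
CPM (linear axis from 0) of 7 genes and of the summed immediate early genes in each older pituitary library, WT as circles and 200H as triangles, numbered by replicate, with a line at the mean. Prl and Lhb were lower in every 200H library than in every WT library, 200H replicate 1 is low for Pomc, Pax7 and Scn7a, and the immediate early sum spreads from 681 to 6381 CPM without regard to genotype.

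Zeb1 (ENSMUSG00000024238, chr18:5591860-5775467, plus strand, GRCm38) was at 54.5, 58.2, 61.8 and 56.7 CPM in WT replicates 1 to 4 and at 72.1, 75.2, 74.3 and 69.2 CPM in 200H replicates 1 to 4. Each 200H library was above each WT library, a 1.26-fold difference of the means (log2 fold change 0.33, SE 0.08, adjusted p = 0.0139). The counts do not tell the 2 alleles apart, and Zeb1 shares exonic bases with Gm10125 on the other strand. Leaving out any 1 library kept the call, but without the 3 libraries low in immediate early genes (WT replicates 1 and 4 and 200H replicate 2) the difference was 0.26 on the log2 scale and not called (adjusted p = 0.12). Without both shallow libraries it was 0.35 (adjusted p = 0.0552). Of the 18 other genes tested within 3 megabases of Zeb1, 0 were called by edgeR, DESeq2 or voom, with 4 at an unadjusted p under 0.05, and the lowest adjusted p was 0.0686. Gm13648, the host transcript of miR-200b, miR-200a and miR-429, was at 5.75, 7.07, 5.38 and 8.60 CPM in WT and at 1.37, 1.37, 0.391 and 1.36 CPM in 200H. Gm15884, the host of miR-200c and miR-141, was at 1.51, 2.44, 1.99 and 1.83 CPM in WT and at 0.913, 0.632, 0.391 and 0.732 CPM in 200H. Neither overlapped between genotypes, and both fell. The values were −2.49 for Gm13648 (SE 0.28, adjusted p = 0.000106) and −1.49 for Gm15884 (SE 0.31, adjusted p = 0.00807) on the log2 scale. Gm15884 is antisense to Phb2 where they share bases, and in these unstranded libraries the reads of the 2 genes cannot be told apart. Zeb2 was at 5.81 to 10.3 CPM in WT and 9.58 to 13.9 CPM in 200H (log2 fold change 0.61, SE 0.19, adjusted p = 0.0550) and was not called, although 7 of the alternatives, among them the fits without WT replicate 1 (adjusted p = 0.0407) and without 200H replicate 3 (adjusted p = 0.0448), brought it under the threshold.

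Of 14922 genes tested, 1825 or 12.2% were called changed at an adjusted p under 0.05, 1058 of them raised (7.09%) and 767 lowered (5.14%). The medians were 0.67 among raised and −0.61 among lowered genes on the log2 scale, against −0.01 over all genes tested. Changes beyond a log2 fold of 1 in size were 256 raised and 208 lowered genes, beyond 2 they were 36 and 55, and beyond 3 they were 8 and 15, so that the largest changes were more often losses. Libraries of the genotypes did not overlap for 2604 genes (17.5%), 9.3% of the genes being higher and 8.15% lower in 200H, and for 1634 of the 1825 called. Reads where annotated genes share exonic bases cannot be assigned in unstranded libraries, and of the genes named, besides those pointed out below, this touches Akr1c14, Apc2, Arhgef5, Atp8a2, Celf3, Cga, D730045B01Rik, Ddr1, Dennd5b, Dsg2, Elavl3, Elf3, Esrp1, Esrp2, Grin2b, Henmt1, Kcnk1, Kcnk2, Krt7, Krt8, Lsr, Map2, Meg3, Miat, Plxnb1, Rtl1, Sec23a, Snhg11, Sorl1 and Zeb2. Raised genes were longer, with a median exonic length of 5486 bases against 4173 in lowered and 4310 in other genes. Removing the trend of counts on length in each library left 1004 raised of 1843 called. Among long noncoding genes of the lincRNA class, 9 of 315 tested were raised and 21 lowered.

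**Figure D2:**
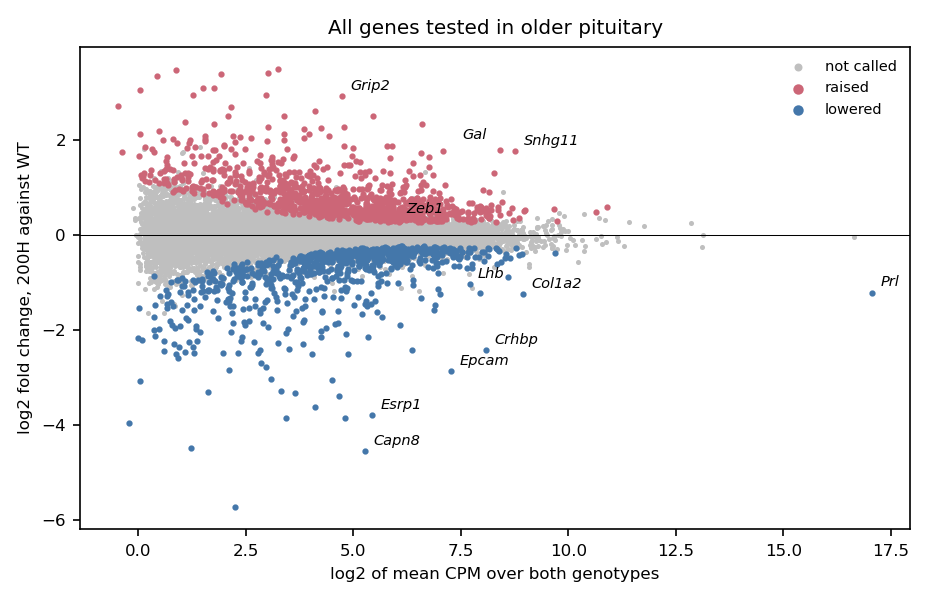
Each point is 1 of the 14922 genes tested, placed by the log2 of its mean CPM over both genotypes and by its log2 fold change, 200H against WT, with raised, lowered and uncalled genes in different colours. Epcam, Esrp1, Capn8 and Crhbp lie among the most strongly lowered of the well expressed genes, Grip2, Gal and Snhg11 among the raised, and Prl is the most abundant gene called.

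The clearest losses were of epithelial genes. Esrp1 (ENSMUSG00000040728, chr4:11331933-11386783), which directs epithelial patterns of splicing, was at 84.0, 79.6, 79.9 and 78.5 CPM in WT replicates 1 to 4 and at 6.51, 6.11, 5.67 and 4.81 CPM in 200H replicates 1 to 4 (log2 fold change −3.80, SE 0.11, adjusted p = 8.54e-10). Rab25 (ENSMUSG00000008601, chr3:88542029-88548300), a small GTPase of epithelial recycling endosomes, was at 49.7, 55.1, 54.6 and 48.9 CPM in WT and at 3.88, 3.69, 3.71 and 3.03 CPM in 200H (log2 fold change −3.87, SE 0.12, adjusted p = 1.46e-09). Ap1m2 (ENSMUSG00000003309, chr9:21294275-21312337), the epithelial subunit of the AP-1 adaptor that sorts proteins to the basolateral membrane, was at 47.1, 48.1, 43.1 and 47.7 CPM in WT and at 3.54, 5.16, 4.50 and 4.39 CPM in 200H (log2 fold change −3.40, SE 0.12, adjusted p = 8.52e-09). In all of these the 200H libraries lay far below the lowest WT library, with a ratio of means of 13.9, 14.6 and 10.6 respectively. Epcam (ENSMUSG00000045394, chr17:87635979-87651129), the epithelial cell adhesion molecule, was at 253, 277, 243 and 317 CPM in WT and at 32.0, 44.9, 39.9 and 32.0 CPM in 200H (log2 fold change −2.88, SE 0.13, adjusted p = 6.19e-08). Capn8 (ENSMUSG00000038599, chr1:182565007-182632352), a calpain protease, was at 58.3, 82.0, 83.5 and 72.8 CPM in WT and at 4.45, 1.58, 1.76 and 4.29 CPM in 200H (log2 fold change −4.56, SE 0.24, adjusted p = 2.42e-07). Capn8 was the most strongly lowered of these, and its 200H libraries split into replicates 2 and 3 below 2 CPM and replicates 1 and 4 above 4 CPM.

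The other lowered genes of smallest p followed the same pattern, and again no 200H library reached a WT library. Cdcp1, a transmembrane protein with CUB domains, was at 62.8 to 68.9 CPM in WT and 13.2 to 16.6 CPM in 200H (log2 fold change −2.16, SE 0.09, adjusted p = 5.32e-08). Tmc4, of the transmembrane channel-like family, was at 132 to 148 CPM in WT and 20.3 to 29.9 CPM in 200H (log2 fold change −2.43, SE 0.11, adjusted p = 6.19e-08). Arhgef5, an exchange factor for small GTPases, was at 99.5 to 120.0 CPM in WT and 26.4 to 30.5 CPM in 200H (log2 fold change −1.91, SE 0.09, adjusted p = 7.12e-08). Tmc4 shares exonic bases with its neighbour Leng1 on the same strand, so the reads of these genes cannot be fully separated.

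**Figure D3:**
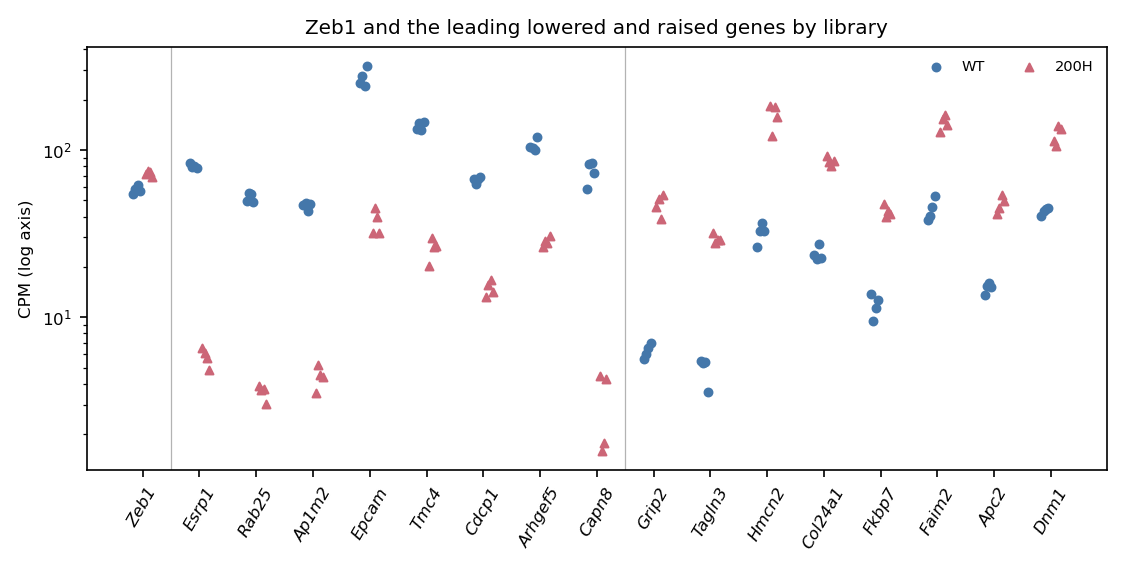
CPM on a log axis of Zeb1, of the 8 lowered genes and of the 8 raised genes of smallest p, in the 4 WT (circles) and 4 200H (triangles) older pituitary libraries. The genotypes do not overlap in any of the 17 genes, and the distance is short for Zeb1 (1.26-fold) and long for Esrp1, Rab25 and Ap1m2.

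By list, the losses were spread over the epithelial genes measured, with exceptions. Among the transcription factors and splicing regulators of epithelia, 4 of 10 tested were lowered, against 5.14% of all genes tested, and 0 raised, with a median of −0.52. Esrp1 was among the lowered ones. Its relative Esrp2 was at 2.74 to 4.41 CPM in WT and 0.195 to 0.836 CPM in 200H (log2 fold change −2.60, SE 0.34, adjusted p = 0.000401). The ETS factor Ehf was at 28.4 to 37.1 CPM in WT and 7.005 to 9.79 CPM in 200H (log2 fold change −1.97, SE 0.15, adjusted p = 3.03e-06). Elf3 (log2 fold change −0.39, adjusted p = 0.151) and Klf4 (−0.25, adjusted p = 0.825) were not called. Of 39 adhesion, junction and polarity genes, 21 (53.8%) were lowered, 1 was raised and 17 were not called, with a median of −0.61. Lsr, which builds tricellular junctions, was at 19.997, 34.9, 29.1 and 28.5 CPM in WT and 5.48, 3.90, 4.89 and 5.44 CPM in 200H (log2 fold change −2.52, SE 0.19, adjusted p = 3.03e-06). Ildr1 of the same family was at 30.5, 39.6, 37.5 and 42.4 CPM in WT and 13.2, 12.3, 11.9 and 11.7 CPM in 200H (log2 fold change −1.61, SE 0.12, adjusted p = 3.03e-06). The desmosomal cadherin Dsg2 was at 60.2 to 67.2 CPM in WT and 20.9 to 25.0 CPM in 200H (log2 fold change −1.46, SE 0.09, adjusted p = 7.17e-07). Cdh1, the cadherin of adherens junctions and a textbook ZEB1 target, was at 13.3, 11.7, 14.6 and 11.7 CPM in WT and 11.6, 10.95, 11.3 and 10.0 CPM in 200H, which do not overlap, but it was not called (log2 fold change −0.21, SE 0.13, adjusted p = 0.338). The tight junction scaffold Tjp1 was at 80.0 to 98.8 CPM in WT and 79.7 to 97.3 CPM in 200H, and its log2 fold change was 0.04 (adjusted p = 0.833).

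All 3 keratins with enough counts were lowered. Krt7 was at 30.7, 40.8, 31.1 and 24.8 CPM in WT and 3.196, 3.48, 1.76 and 1.57 CPM in 200H (log2 fold change −3.63, SE 0.24, adjusted p = 1.43e-06). Krt8, which pairs with Krt18 in simple epithelia, was at 21.5 to 23.7 CPM in WT and 5.82 to 7.62 CPM in 200H (log2 fold change −1.81, SE 0.13, adjusted p = 2e-06). Krt18 was at 43.5 to 60.0 CPM in WT and 17.9 to 24.0 CPM in 200H (log2 fold change −1.31, SE 0.13, adjusted p = 3.08e-05). The log2 changes of this pair were smaller than that of Krt7, without a test of the difference. Of 30 epithelial trafficking, protease and membrane genes, 20 (66.7%) were lowered and 0 raised, with a median of −0.93. Ddr1, a collagen receptor (−0.19, adjusted p = 0.162), and the sorting receptor Sorl1 (−0.17, adjusted p = 0.343) were the most abundant of the list and were not called. The epithelial lists were drawn up knowing earlier results of these libraries, so their direction is not independent evidence. The 21 lowered adhesion genes became 15 without both shallow libraries.

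Of 28 mesenchymal markers tested, 2 were raised and 0 lowered, and the median was 0.00. The raised share was thus 7.14%, near the 7.09% of all genes tested, and the count was 1 without WT replicate 1, 2 or 3 or 200H replicate 4. Cdh11, a mesenchymal cadherin, was at 37.0, 39.1, 43.9 and 36.5 CPM in WT and 109, 55.8, 80.7 and 78.2 CPM in 200H (log2 fold change 1.05, SE 0.16, adjusted p = 0.00121), with every 200H library above WT. Vim, the intermediate filament of mesenchymal cells, was at 19.2, 20.1, 23.1 and 21.7 CPM in WT and 16.2, 25.7, 25.4 and 18.9 CPM in 200H (log2 fold change 0.03, SE 0.15, adjusted p = 0.923), and the genotypes overlapped. Among 18 collagens, 3 (16.7%) were raised and 1 (5.56%) lowered, against 7.09% and 5.14% of all genes tested. Without WT replicate 1 or 2 or 200H replicate 2, 3 or 4, 1 was raised. The lowered one was Col1a2, a chain of the fibrillar collagen of type I, at 612, 883, 761 and 520.2 CPM in WT and 305, 223, 325 and 318 CPM in 200H (log2 fold change −1.25, SE 0.16, adjusted p = 0.00037). Its partner chain Col1a1 was at 15.1, 16.3, 23.1 and 21.3 CPM in WT and 16.8, 18.6, 27.9 and 27.4 CPM in 200H (log2 fold change 0.26, SE 0.19, adjusted p = 0.421). Col1a2 was thus called and Col1a1 was not, and the difference between them was not tested. Col24a1, a fibrillar collagen outside the list, was at 23.4, 22.2, 27.3 and 22.6 CPM in WT and 92.5, 85.4, 80.7 and 86.4 CPM in 200H (log2 fold change 1.86, SE 0.09, adjusted p = 9.12e-08).

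Among the 8 raised genes of smallest p, several are known from neurons. Grip2 (ENSMUSG00000030098, chr6:91761509-91827250), a scaffold for glutamate receptors, was at 5.62, 6.06, 6.58 and 6.99 CPM in WT replicates 1 to 4 and 45.5, 50.9, 38.7 and 54.1 CPM in 200H replicates 1 to 4 (log2 fold change 2.91, SE 0.13, adjusted p = 6.19e-08). Tagln3, a neuronal member of the transgelin family, was at 5.48, 5.30, 5.38 and 3.55 CPM in WT and 32.1, 27.9, 29.1 and 29.2 CPM in 200H (log2 fold change 2.59, SE 0.14, adjusted p = 3.89e-07). Dnm1, the dynamin that pinches off synaptic vesicles, was at 40.1, 43.3, 44.3 and 44.8 CPM in WT and 113, 106, 138 and 134 CPM in 200H (log2 fold change 1.51, SE 0.10, adjusted p = 1.46e-06). The ratio of means was 7.49 for Grip2, 6.00 for Tagln3 and 2.85 for Dnm1, with no overlap. Apc2, the neural relative of Apc, was at 13.6 to 15.9 CPM in WT and 41.3 to 53.9 CPM in 200H (log2 fold change 1.66, SE 0.11, adjusted p = 1.46e-06). Faim2, an inhibitor of Fas-mediated death in neurons, was at 37.9 to 53.2 and 129 to 161 CPM (log2 fold change 1.72, SE 0.12, adjusted p = 1.54e-06). The remaining ones were matrix and chaperone genes. Hmcn2, of the hemicentin family of matrix proteins, was at 26.4 to 36.5 CPM in WT and 122 to 184 CPM in 200H (log2 fold change 2.33, SE 0.14, adjusted p = 7.17e-07). Fkbp7, a prolyl isomerase of the endoplasmic reticulum, was at 9.51 to 13.8 CPM in WT and 39.6 to 47.6 CPM in 200H (log2 fold change 1.87, SE 0.13, adjusted p = 1.54e-06).

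Among the neuronal lists, raised members made up 45.9% of receptor subunits, 45.0% of splicing and RNA-binding genes, 35.1% of cytoskeletal genes, 32.8% of channel genes and 28.0% of synaptic vesicle genes, against 7.09% of all genes tested. These lists too were drawn up with earlier results known. Of 37 neurotransmitter receptor subunits tested, 17 were raised and 0 lowered, with a median of 0.53. Grin2b, an NMDA receptor subunit, was at 0.274, 0.589, 0.598 and 0.860 CPM in WT and 4.11, 4.32, 4.50 and 7.42 CPM in 200H (log2 fold change 3.08, SE 0.34, adjusted p = 8.45e-05). Gabra3, a GABA-A receptor subunit, was at 4.38, 4.21, 5.18 and 2.15 CPM in WT and 19.2, 13.8, 17.4 and 17.4 CPM in 200H (log2 fold change 2.12, SE 0.22, adjusted p = 4.94e-05). The kainate receptor genes Grik5 (0.10, adjusted p = 0.547) and Grik3 (−0.01, adjusted p = 0.993) were the most abundant and were not called. Of 20 neuronal splicing and RNA-binding genes, 9 were raised and 0 lowered, with a median of 0.35. Elavl3, which binds and steadies neuronal messages, was at 4.79, 6.73, 6.78 and 5.16 CPM in WT and 13.5, 16.5, 22.1 and 20.4 CPM in 200H (log2 fold change 1.62, SE 0.19, adjusted p = 0.00014). The splicing factor Rbfox1 was at 2.88, 3.87, 2.39 and 4.19 CPM in WT and 12.2, 8.53, 8.01 and 14.8 CPM in 200H (log2 fold change 1.67, SE 0.24, adjusted p = 0.000757). The abundant Celf3 was at 327 to 419 and 315 to 426 CPM (log2 fold change −0.02, SE 0.11, adjusted p = 0.933). The 9 raised genes became 4 without both shallow libraries and 5 without 200H replicate 4.

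Of 37 genes of the neuronal cytoskeleton and growth cone, 13 were raised and 1 lowered, with a median of 0.29. Map2, the dendritic microtubule protein, was already abundant, at 204, 179, 212 and 210.0 CPM in WT, and reached 377, 379.6, 331 and 401 CPM in 200H (log2 fold change 0.89, SE 0.09, adjusted p = 4.59e-05). Dcx, of migrating neurons, was at 4.52, 4.63, 4.78 and 6.56 CPM in WT and 16.2, 16.2, 12.7 and 16.6 CPM in 200H (log2 fold change 1.59, SE 0.16, adjusted p = 5.18e-05). Gap43, of growth cones, was at 1.64, 0.842, 0.997 and 1.08 CPM in WT and 5.14, 5.90, 5.08 and 6.48 CPM in 200H (log2 fold change 2.33, SE 0.24, adjusted p = 5.32e-05). Stmn4, a microtubule-binding stathmin, was at 0.411, 0.253, 0 and 0.215 CPM in WT and 2.97, 2.42, 1.56 and 2.93 CPM in 200H (log2 fold change 3.34, SE 0.42, adjusted p = 0.00028). The largest log2 changes of the list were thus in genes of very low level in WT. The abundant Map1b (log2 fold change 0.36, SE 0.14, adjusted p = 0.129) and Kif1a (log2 fold change 0.01, SE 0.10, adjusted p = 0.945) were not called. The lowered one was Dclk1, a relative of Dcx (−0.57 on the log2 scale). Without WT replicate 1, 2 or 3 or 200H replicate 1, 2 or 3, 0 members were lowered. The count of 13 became 8 without the 3 libraries low in immediate early genes.

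Of 58 potassium, calcium, sodium and pacemaker channel genes, not all of them voltage-gated, 19 were raised and 3 lowered, with a median of 0.35. Kcnk2, a background potassium channel gene, was at 57.3 to 74.0 CPM in WT and 109 to 116 CPM in 200H (log2 fold change 0.77, SE 0.09, adjusted p = 0.000125). The pacemaker channel gene Hcn4 was at 3.42 to 7.58 and 12.5 to 16.9 CPM (log2 fold change 1.496, SE 0.22, adjusted p = 0.000747). Kcnk1, of the same potassium channel family as Kcnk2, was lowered, at 28.3 to 36.7 CPM in WT and 17.5 to 20.2 CPM in 200H (log2 fold change −0.81, SE 0.12, adjusted p = 0.000713). Of 50 synaptic vesicle and exocytosis genes, 14 were raised and 1 lowered, with a median of 0.26. Rims3, of the vesicle release site, was at 24.2 to 28.9 CPM in WT and 51.5 to 58.4 CPM in 200H (log2 fold change 1.04, SE 0.09, adjusted p = 9.87e-06). Rph3a, a partner of Rab3 on vesicles, was at 5.89 to 8.67 and 16.3 to 20.1 CPM (log2 fold change 1.31, SE 0.15, adjusted p = 0.000125). Snap25, a core part of the secretory machinery of endocrine cells too, was at 299 to 342 and 323 to 389 CPM (log2 fold change 0.17, SE 0.09, adjusted p = 0.237). Of 46 axon guidance genes, 8 (17.4%) were raised, against 7.09% of all genes tested, and 1 was lowered. Without WT replicate 1 or 2 or 200H replicate 3 or 4, 5 were raised. The lowered one was the semaphorin receptor Plxnb1, at 252, 274, 271 and 271 CPM in WT and 138, 176, 169.6 and 175 CPM in 200H (log2 fold change −0.70, SE 0.09, adjusted p = 0.000375).

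The neuronal transcription regulators were not called: of 20 tested, 0 were raised and 0 lowered by edgeR, and the median was −0.03. At an unadjusted p under 0.05 there were 2, and DESeq2 and voom also gave 0. Rest, the repressor that keeps neuronal genes silent outside neurons, was at 7.53, 8.08, 7.77 and 7.31 CPM in WT and 5.37, 9.58, 6.65 and 8.15 CPM in 200H (log2 fold change −0.03, SE 0.18, adjusted p = 0.931). Neurod4, of neural and endocrine differentiation, was at 88.2 to 259 CPM in WT and 99.1 to 209 CPM in 200H (log2 fold change −0.14, SE 0.29, adjusted p = 0.795). Of 17 listed markers of hypothalamic neurons and terminals only 4 were tested. These were mixed, with 1 (25%) raised and 1 (25%) lowered, against 7.09% and 5.14% of all genes tested. Without WT replicate 1 or 2 or 200H replicate 1, 0 were raised. The lowered one was Gad2, an enzyme of GABA synthesis, at 61.1, 50.7, 52.6 and 41.6 CPM in WT and 25.0, 22.1, 38.5 and 37.6 CPM in 200H (log2 fold change −0.75, SE 0.18, adjusted p = 0.0157). Of 11 markers of pituicytes and the posterior lobe, 2 (18.2%) were raised, against 7.09% of all genes tested, and 0 lowered. The raised ones were 1 without WT replicate 1, 2 or 4 or 200H replicate 2, 3 or 4. The summed level of the list overlapped, at 330 to 421 CPM in WT and 296 to 437 CPM in 200H. Whether the posterior lobe had a part in the raised neuronal genes was not tested.

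**Figure D4:**
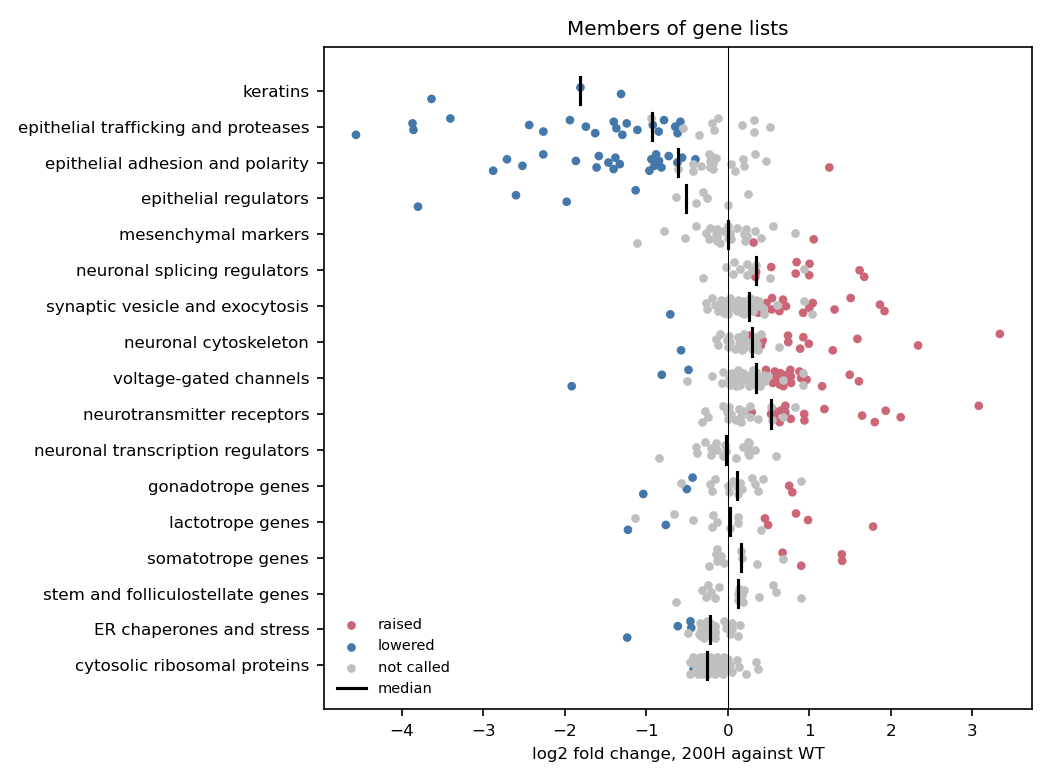
Log2 fold change, 200H against WT, of each tested member of 17 gene lists, coloured where called raised or lowered and grey where not called, with a bar at the median of the list. The medians of keratins and the other epithelial lists lie left of 0, those of receptor, channel, cytoskeleton and splicing lists right of 0, and those of mesenchymal markers and neuronal transcription regulators around 0. Apart from the keratins, each list has members on both sides of 0.

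Of the hormone genes, Prl and Lhb were lowered, and Fshb, Cga, Gh, Pomc and Tshb were not called. Prl, the most abundant hormone message in WT, was at 207849, 202930.0, 165961 and 191494 CPM in WT replicates 1 to 4 and 117547, 80142, 73329 and 57987 CPM in 200H replicates 1 to 4, and made up 15.8% to 19.5% of all counts in WT and 6.35% to 11.9% in 200H. Its share was lower in each 200H library than in any WT library (log2 fold change −1.22, SE 0.18, adjusted p = 0.000977). With Prl, Gh and Pomc left out of the scaling, 1825 genes were again called, 1061 of them raised. Of 17 lactotrope genes, 5 (29.4%) were raised and 2 (11.8%) lowered, against 7.09% and 5.14% of all genes tested. The raised ones were 3 without WT replicate 1, 2 or 3 or 200H replicate 4. The lowered ones were 1 without 200H replicate 4. Gal, encoding galanin, which lactotropes make under estrogen, was at 120.4, 239, 179 and 73.7 CPM in WT and 719, 248, 635 and 506 CPM in 200H (log2 fold change 1.78, SE 0.35, adjusted p = 0.00574), with 200H replicate 2 close to the highest WT library. Trhr, the receptor for thyrotropin-releasing hormone, was at 6.44, 5.05, 3.39 and 4.09 CPM in WT and 9.93, 9.79, 8.40 and 9.72 CPM in 200H (log2 fold change 0.98, SE 0.19, adjusted p = 0.00493). Drd2, the dopamine receptor that restrains prolactin, was at 108, 107, 122 and 148 CPM in WT and 72.3, 90.8, 105 and 94.1 CPM in 200H and was not called (log2 fold change −0.43, SE 0.13, adjusted p = 0.0505), although the genotypes did not overlap. The enzyme gene Akr1c14 was at 193 to 269 CPM in WT and 143 to 321 CPM in 200H (log2 fold change −0.14, SE 0.20, adjusted p = 0.718). Lactotrope genes therefore did not all follow Prl.

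Among 21 gonadotrope genes, 3 (14.3%) were lowered and 2 (9.52%) raised, against 5.14% and 7.09% of all genes tested. The raised ones were 1 without WT replicate 1 or 2 or 200H replicate 3. Lhb was at 293, 305, 303 and 219 CPM in WT and 130.5, 201, 125 and 89.5 CPM in 200H (log2 fold change −1.04, SE 0.20, adjusted p = 0.00501), and the values approached each other only between WT replicate 4 and 200H replicate 2. These are 2 of the 3 libraries low in immediate early genes. Without both shallow libraries the log2 fold change was −0.96 (adjusted p = 0.0523). Lhb shares bases with Ruvbl2 on the other strand, and unstranded reads there cannot be told apart. Fshb was at 80.3, 41.3, 35.3 and 69.3 CPM in WT and 28.0, 99.1, 64.3 and 45.6 CPM in 200H (log2 fold change 0.06, SE 0.33, adjusted p = 0.932), with a spread within each genotype as wide as between them. Cga, the subunit shared by all glycoprotein hormones, was at 1538, 1184, 1505 and 1522 CPM in WT and 1101, 1298, 839 and 618 CPM in 200H (log2 fold change −0.58, SE 0.19, adjusted p = 0.0655) and, without 200H replicate 2, passed the threshold (log2 fold change −0.75, adjusted p = 0.0147). Gnrhr, the receptor for gonadotropin-releasing hormone, was at 49.0 to 87.7 CPM in WT and 69.2 to 99.2 CPM in 200H (log2 fold change 0.33, SE 0.18, adjusted p = 0.264), and without the 3 libraries low in immediate early genes it passed the threshold, with 0.61 (adjusted p = 0.00685). Nr5a1, which drives gonadotrope genes including Lhb, rose, from 29.3, 27.4, 34.9 and 38.3 CPM in WT to 58.0, 54.1, 64.3 and 42.8 CPM in 200H (log2 fold change 0.75, SE 0.14, adjusted p = 0.00369). Inha, the inhibin subunit, fell, from 39.3, 57.4, 44.7 and 47.5 CPM in WT to 30.02, 33.2, 34.8 and 36.2 CPM in 200H (log2 fold change −0.50, SE 0.12, adjusted p = 0.0152), and without both shallow libraries its adjusted p was 0.0595.

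Gh was at 96026, 103552, 108463 and 104545 CPM in WT and 100627, 100774, 117556 and 81494 CPM in 200H (log2 fold change −0.04, SE 0.12, adjusted p = 0.858) and was not called. It was second to Prl in every WT library and in 200H replicate 1, and above Prl in 200H replicates 2 to 4. Of 14 somatotrope genes, 4 (28.6%) were raised, against 7.09% of all genes tested, and 0 lowered. The raised ones were 2 without WT replicate 2 or 200H replicate 4. Sstr2, a somatostatin receptor, was at 1.64, 2.10, 1.79 and 0.860 CPM in WT and 5.48, 4.21, 3.71 and 3.55 CPM in 200H (log2 fold change 1.40, SE 0.28, adjusted p = 0.00601), and without the 3 libraries low in immediate early genes its adjusted p was 0.0579. Igf1, a growth factor that also marks stromal cells, was at 4.25, 3.62, 5.78 and 2.80 CPM in WT and 12.4, 8.85, 8.40 and 11.8 CPM in 200H (log2 fold change 1.40, SE 0.22, adjusted p = 0.00146). Ghrhr, the receptor for growth-hormone-releasing hormone, was at 189 to 274 CPM in WT and 175 to 283 CPM in 200H (log2 fold change −0.13, SE 0.15, adjusted p = 0.637). Tshb was at 207, 172, 236 and 217 CPM in WT and 223, 246, 126 and 95.2 CPM in 200H, where replicates 3 and 4 were low (log2 fold change −0.26, SE 0.24, adjusted p = 0.535). Of 10 genes of thyrotropes and the pars tuberalis, 2 (20%) were raised and 1 (10%) lowered, against 7.09% and 5.14% of all genes tested. The lowered one was Chodl, a membrane lectin, at 2.19, 1.68, 1.40 and 1.29 CPM in WT and 0, 0.105, 0 and 0.209 CPM in 200H, where it was close to absent from the counts (adjusted p = 0.000528).

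Of 14 corticotrope and melanotrope genes, 3 (21.4%) were raised and 2 (14.3%) lowered, against 7.09% and 5.14% of all genes tested. Crhbp, which binds corticotropin-releasing hormone, was at 319, 713, 635 and 169.6 CPM in WT and 74.5, 25.7, 96.6 and 143 CPM in 200H (log2 fold change −2.43, SE 0.49, adjusted p = 0.00642), and the lowest WT library was just above the highest 200H library. WT replicates 1 and 4 and 200H replicate 2, the libraries low in immediate early genes, had the lowest Crhbp of their genotypes, and without both shallow libraries its adjusted p was 0.0513. Megf11, a receptor with EGF-like repeats, was at 30.5, 19.9, 32.1 and 33.9 CPM in WT and 6.62, 8.85, 11.5 and 11.5 CPM in 200H (log2 fold change −1.60, SE 0.20, adjusted p = 0.000274). Nr3c1, the glucocorticoid receptor, was at 73.6, 63.0, 70.6 and 84.3 CPM in WT and 102, 118, 122 and 131 CPM in 200H (log2 fold change 0.70, SE 0.11, adjusted p = 0.00104), and its 3′ UTR holds 2 miR-200a 8mers. Tbx19, the factor that activates Pomc, was at 52.0 to 84.3 CPM in WT and 37.8 to 85.6 CPM in 200H (log2 fold change −0.08, SE 0.21, adjusted p = 0.846).

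Markers of other cells are read against the 12.2% called among all genes tested, 7.09% raised and 5.14% lowered. Of 17 stem and folliculostellate genes 0 were called by edgeR, DESeq2 or voom, with 3 at an unadjusted p under 0.05. Of 14 endothelial genes 0 were called by edgeR and 1 by DESeq2 and by voom, with 2 at an unadjusted p under 0.05. Sox2, which marks pituitary stem cells, was at 13.1 to 16.3 CPM in WT and 14.6 to 17.9 CPM in 200H (log2 fold change 0.18, SE 0.12, adjusted p = 0.396). Plvap, of fenestrated vessels, was at 110.0 to 159.7 and 123 to 169 CPM (log2 fold change 0.08, SE 0.13, adjusted p = 0.757). Of 13 macrophage genes, 2 (15.4%) were raised, 4 without WT replicate 4, and the summed level of the list was 124 to 159 CPM in WT and 164 to 205 CPM in 200H. One of these was Mrc1, a mannose receptor of tissue macrophages, at 2.74, 3.79, 4.19 and 4.52 CPM in WT and 7.53, 8.64, 5.86 and 6.17 CPM in 200H (log2 fold change 0.90, SE 0.20, adjusted p = 0.0130), with no overlap, and without the 3 libraries low in immediate early genes its adjusted p was 0.085. C1qa, of the complement system, was at 20.8 to 27.9 CPM in WT and 19.3 to 33.8 CPM in 200H (log2 fold change 0.18, SE 0.16, adjusted p = 0.520). Of 13 fibroblast and pericyte genes, 2 (15.4%) were raised and 1 (7.69%) lowered, with 1 raised without WT replicate 1 or 200H replicate 1, 2 or 3. This list summed to 925 to 1243 CPM in WT and 681 to 808 CPM in 200H, and Col1a2 alone made up 520 to 883 CPM of it in WT and 223 to 325 CPM in 200H. Pdgfrb, of pericytes, was at 35.1 to 62.8 CPM in WT and 46.5 to 72.6 CPM in 200H (log2 fold change 0.40, SE 0.17, adjusted p = 0.144). The part of these cells in the results above was not tested. Mbp, a myelin protein gene, was at 47.0 to 71.8 CPM in WT and 30.5 to 65.7 CPM in 200H (log2 fold change −0.55, SE 0.22, adjusted p = 0.125).

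Several strongly raised genes belong to no single function. Trank1, a large protein with tetratricopeptide and ankyrin repeats, was at 1.78, 1.94, 0.997 and 2.15 CPM in WT and 10.8, 12.6, 15.0 and 16.7 CPM in 200H (log2 fold change 2.93, SE 0.22, adjusted p = 3.39e-06). Nrsn2, a neurensin of neuronal vesicles, was at 3.97, 4.29, 4.98 and 6.77 CPM in WT and 23.1, 23.5, 27.2 and 21.01 CPM in 200H (log2 fold change 2.23, SE 0.17, adjusted p = 3.53e-06). Nrsn2 overlaps the antisense gene Gm14164, and unstranded reads of this pair cannot be told apart. Of 31 genes in the list of imprinted genes, 9 (29%) were raised and 3 (9.68%) lowered, with a median of 0.11. Of all genes tested, 7.09% were raised and 5.14% lowered. The list includes Snhg11, a noncoding host gene of small nucleolar RNAs, without a check that it is imprinted. Snhg11 was at 201, 174, 165 and 254 CPM in WT and 619, 589, 665 and 809.8 CPM in 200H (log2 fold change 1.75, SE 0.14, adjusted p = 6.86e-06). The growth restrainer Grb10 was at 61.2, 63.3, 66.0 and 59.2 CPM in WT and 129, 116, 133 and 157 CPM in 200H (log2 fold change 1.10, SE 0.10, adjusted p = 1.39e-05). Rtl1, of the Dlk1 to Meg3 cluster, was at 17.3 to 22.4 CPM in WT and 33.0 to 38.6 CPM in 200H (log2 fold change 0.84, SE 0.11, adjusted p = 0.000312). Of the same cluster Meg3, a noncoding RNA, was not called, at 8819.7 to 9240.0 CPM in WT and 8386 to 9473 CPM in 200H (log2 fold change −0.00, SE 0.09, adjusted p = 0.997). Dlk1 was at 1764 to 2766 CPM in WT and 1788 to 2333 CPM in 200H (log2 fold change −0.13, SE 0.14, adjusted p = 0.602). Miat, a noncoding RNA of neural tissue, was at 61.5, 55.3, 60.6 and 68.8 CPM in WT and 164, 247, 203 and 217 CPM in 200H (log2 fold change 1.76, SE 0.12, adjusted p = 1.81e-06).

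In the secretory and metabolic lists the counts are read against 7.09% raised and 5.14% lowered among all genes tested. Of 32 endoplasmic reticulum chaperone and stress genes, 4 (12.5%) were lowered and 0 raised, and 27 had a log2 fold change below 0, with a median of −0.22. The lowered ones were 1 without 200H replicate 4, 2 without WT replicate 1 or 2 and 8 without WT replicate 4. Derl3, which helps to remove misfolded proteins, was at 15.1, 11.6, 15.2 and 7.74 CPM in WT and 5.02, 4.84, 6.25 and 4.91 CPM in 200H (log2 fold change −1.23, SE 0.22, adjusted p = 0.00297). The chief chaperone Hspa5 was at 1217 to 1858 CPM in WT and 1089.7 to 1253 CPM in 200H (log2 fold change −0.34, SE 0.13, adjusted p = 0.107). Of 22 cholesterol genes, 3 (13.6%) were raised and 1 lowered. The raised ones were 0 without WT replicate 1 or 3 or 200H replicate 2, 3 or 4, 1 without WT replicate 2 or 4 and 5 without 200H replicate 1. Of 38 genes of the TGF-beta, BMP and activin pathways, 4 (10.5%) were lowered and 1 raised, with 3 raised without WT replicate 4 and 0 without WT replicate 1, 2 or 3 or 200H replicate 4. Id1, which BMP signals switch on, was at 14.8, 17.7, 23.1 and 13.9 CPM in WT and 8.68, 8.74, 8.60 and 8.26 CPM in 200H (log2 fold change −1.002, SE 0.17, adjusted p = 0.00184). Its relative Id3 was at 23.01, 27.4, 32.5 and 28.2 CPM in WT and 14.8, 14.7, 13.9 and 12.7 CPM in 200H (log2 fold change −0.98, SE 0.12, adjusted p = 0.000265). The genotypes did not overlap in either.

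Of 80 cytosolic ribosomal protein genes, 1 was lowered and 0 raised, but 72 had a log2 fold change below 0, and the median was −0.25 against −0.01 over all genes. This count moved with single libraries, and 9 were lowered without 200H replicate 1, 12 without WT replicate 4 and 0 without any other. Nuclear genes of oxidative phosphorylation gave 0 of 81 called by edgeR and 1 lowered by DESeq2 and by voom, with 1 at an unadjusted p under 0.05 and a median of −0.06. Of 12 mitochondrial genes, 3 (25%) were raised, against 7.09% of all genes tested. The raised ones were 5 without WT replicate 1 and 1 without WT replicate 2 or 3 or 200H replicate 4. The respiratory complex gene mt-Nd5 was at 1572, 1163, 1371 and 1255 CPM in WT and 1926, 1726, 1868 and 1914 CPM in 200H (log2 fold change 0.47, SE 0.10, adjusted p = 0.00988). Mitochondrial counts made up 0.808% to 1.21% of WT and 1.30% to 1.36% of 200H libraries. These are shares of unscaled counts. In them Prl made up 15.8% to 19.5% in WT and 6.35% to 11.9% in 200H, and less Prl makes the shares of other genes larger. mt-Nd5 overlaps mt-Nd6 on the other strand, whose reads cannot be told apart from it, and without both shallow libraries its adjusted p was 0.0687. Of 22 cell cycle genes 1 (4.55%) was lowered, and of 19 clock genes 1 (5.26%), against 5.14% of all genes tested. Of 51 clustered protocadherins 2 (3.92%) were raised (1 without WT replicate 1, 2 or 3) and 1 (1.96%) lowered.

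Genes with perfect sites for the microRNAs were raised more often than others. An 8mer site is a match to seed bases 2 to 8 followed by an A, counted in the longest annotated 3′ UTR of each protein-coding gene, with Zeb1 left out. Among 12300 genes with 0 sites 6.92% were raised and 5.61% lowered, among 1013 with 1 site 13.4% and 2.27%, and among 124 with 2 or more sites 24.2% were raised and 0 lowered. The median log2 fold change was −0.02 with 0 sites, 0.10 with 1 and 0.20 with 2 or more. UTR length goes with the number of sites, from a median of 1128 bases with 0 sites to 3677 with 2 or more. Within UTRs of under 1000 bases 8.26% of genes with a site and 4.31% of those without were raised, and within UTRs of 4000 bases or more 21.3% and 11.9%. Between these, the values were 10.2% and 6.89% from 1000 to 2000 bases and 14% and 11% from 2000 to 4000 bases. At every length the share was higher with a site, and it was 16.6% with a miR-200b type and 14.2% with a miR-200a type site. These shares are a description, and no test was made of them.

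The genes below were picked by smallest p from the 30 raised of the 124 genes with 2 or more sites. They do not give the typical change, the median of all 124 being 0.20. Gpm6a, a neuronal membrane glycoprotein gene whose sites are printed above, was at 48.2, 42.3, 43.7 and 43.8 CPM in WT and 121, 121, 101 and 104 CPM in 200H (log2 fold change 1.33, SE 0.09, adjusted p = 1.56e-06). Dennd5b, an activator of Rab GTPases, was at 24.5, 19.6, 17.7 and 22.5 CPM in WT and 34.9, 39.1, 37.3 and 36.7 CPM in 200H (log2 fold change 0.81, SE 0.11, adjusted p = 0.000492). Atp8a2, a lipid flippase of neurons, was at 2.60, 3.37, 3.59 and 3.55 CPM in WT and 6.05, 7.69, 6.84 and 8.47 CPM in 200H (log2 fold change 1.151, SE 0.19, adjusted p = 0.00160). In all of them each 200H library was above each WT library. Sec23a, a coat protein of vesicles leaving the endoplasmic reticulum, was at 63.8 to 70.2 CPM in WT and 87.4 to 105 CPM in 200H (log2 fold change 0.50, SE 0.08, adjusted p = 0.00164). Ppm1e, a protein phosphatase with 3 miR-200a sites, was at 33.5 to 38.7 and 47.9 to 64.6 CPM (log2 fold change 0.63, SE 0.10, adjusted p = 0.00195).

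Promoters of lowered genes held ZEB-type E-boxes more often. The motifs CAGGTG and CAGGTA were searched on both strands in the 300 bases from 250 before to 50 after the RefSeq start (GRCm38.p6), which 10588 tested protein-coding genes have. CAGGTG was found in 20.2% of all 32851 RefSeq promoters, in 18.1% of those of tested genes, in 15.2% of raised, 17.4% of uncalled and 33.5% of lowered genes. The share was 49.3% in the 136 genes lowered beyond a log2 fold change of −1 and 65.0% in the 40 lowered beyond −2. CAGGTA was found in 12.0% of all RefSeq promoters, 8.19% of those of tested genes, 7.77% of raised, 14.5% of lowered genes and 32.5% of the 40. Either motif was in 29.5% of all RefSeq promoters, 21.8% of raised, 23.6% of uncalled and 40.4% of lowered genes and in 70.0% of the 40. Of other E-boxes, CAGCTG was in 14.8% of uncalled, 18.6% of raised and 15.4% of lowered genes, in 18.4% of the 136 and in 20% of the 40. CACGTG was in 10.1% of uncalled, 8.28% of raised and 8.87% of lowered genes, in 6.62% of the 136 and in 5% of the 40. The median GC content was 61% in uncalled, 62.3% in raised and 61.3% in lowered genes, 58.8% in the 136 and 58% in the 40. Lhb had 4 matches to either motif, Prl 0 and Grip2 0.

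**Figure D5:**
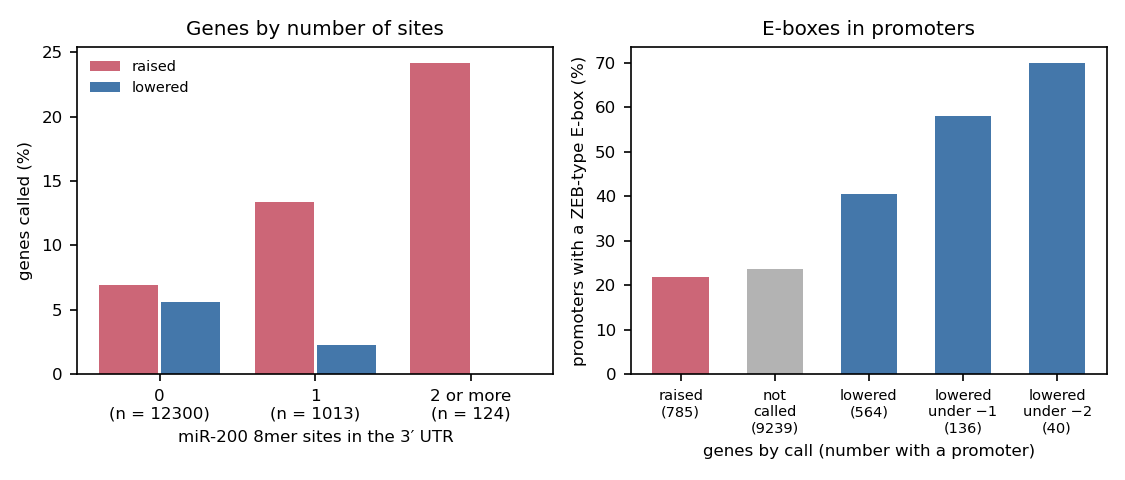
Left, percent of protein-coding genes called raised or lowered by the number of miR-200 8mer sites in the 3′ UTR. Right, percent of promoters with CAGGTA or CAGGTG among raised, uncalled and lowered genes and among those lowered beyond a log2 fold change of −1 and −2. Bars start at 0, raised genes climb from 6.92% to 24.2% with sites, and E-boxes from 23.6% in uncalled genes to 70.0% in the most lowered.

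The same contrast in the young virgin cohort shares no library with this one. There 2218 of 18051 genes, or 12.3%, were called, 6.56% raised and 5.72% lowered. Both cohorts could be tested for 14171 genes. Among these, the older cohort gave 1770 calls, of which 1707 (96.4%) had the same sign in the young, against 71.7% of all 14171. Called in both were 957 genes, which are 54.1% of the older and 49.0% of the young calls, 577 raised and 380 lowered, and 0 of them had opposite signs. Over the 14171 genes, which are not independent replicates, the log2 fold changes of the cohorts had a Pearson correlation of 0.73 and a Spearman correlation of 0.61. In the young cohort the log2 fold change was −3.29 for Esrp1, −3.35 for Rab25, −2.56 for Epcam, 2.29 for Grip2, 1.54 for Dnm1, 2.26 for Snhg11 and 1.75 for Gal, all called. Age, breeding history, library chemistry, sequencing, counting and annotation all change with the cohort and cannot be told apart.

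A difference of the 200H effect between the cohorts was called in 2 of 14185 genes (0.0141%) by the interaction term of edgeR, with 968 at an unadjusted p under 0.05 and 9 called by DESeq2. Leng1 was at 17.4, 15.5, 15.2 and 16.7 CPM in older WT and 11.6, 10.3, 10.7 and 11.6 CPM in older 200H, and at 14.9, 15.4 and 18.2 CPM in young WT and 4.35, 4.63, 4.65 and 4.42 CPM in young 200H. Both cohorts had it lower in 200H, the older less so, by a difference of 1.29 in log2 fold change (adjusted p = 0.00751), and without the 3 libraries low in immediate early genes its older change was not called (adjusted p = 0.113). Leng1 shares exonic bases with Tmc4 on the same strand, where neither the unstranded older reads nor the stranded young reads can be fully separated. Gm14377 was at 3.01, 3.03, 3.19 and 0.753 CPM in older WT and 3.77, 2.53, 2.35 and 3.24 CPM in older 200H, and at 5.43, 5.96 and 5.81 CPM in young WT and 1.02, 1.01, 0.594 and 0.631 CPM in young 200H (difference 3.07, adjusted p = 0.0319). Leaving out single libraries gave 0 to 5 genes, with 0 without the unnumbered young WT library.

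Older 200M pituitaries were compared with the same 4 WT libraries, so their values are set beside those of 200H without a test of likeness. Against WT, 21.4% of 14711 genes were called in 200M (11.7% raised, 9.77% lowered) and 12.2% of 14922 in 200H. For the epithelial genes the log2 fold changes were −3.80 in 200H and −3.96 in 200M for Esrp1, −3.87 and −3.76 for Rab25, −2.88 and −3.45 for Epcam and −4.56 and −6.51 for Capn8. The neuronal genes gave 2.91 and 2.65 for Grip2, 0.89 and 1.14 for Map2 and 2.33 and 3.64 for Gap43. Hormone and receptor genes gave 1.78 and 1.20 for Gal, −2.43 and −1.92 for Crhbp and 0.75 and 0.93 for Nr5a1. Among hormones, Lhb was at −1.04 in 200H and −2.33 in 200M, Prl at −1.22 and −1.66, and Cga at −0.58, not called, and −0.81, called (adjusted p = 0.000322). Pomc had opposite signs, −0.27 in 200H, not called, and 1.02 in 200M, called (adjusted p = 0.00469). The differences between 200H and 200M were not tested. Cytosolic ribosomal protein genes had 1 of 80 lowered in 200H, median −0.25, and 38 of 78 in 200M, median −0.43. Mesenchymal markers had 2 of 28 raised in 200H and 7 of 28 in 200M, and neurotransmitter receptors 17 of 37 and 25 of 38.

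Without the shallow 200H replicate 3, 1286 genes were called. Lost were 604 calls, all of them with the same sign in both fits and with a median adjusted p of 0.0712 in the smaller one, and gained were 65, of which 18 had not been tested with all 8 libraries. The largest log2 changes among the losses were in low genes. These were Epp13 (−1.98), the mitochondrial transfer RNA gene mt-Ta (1.84), D730045B01Rik (−1.59), Gm26685 (−1.55) and Henmt1, a methyltransferase of small RNAs (−1.45), with adjusted p from 0.0286 to 0.0462 with all 8 libraries. The genes gained with the largest changes were Bpifa2, Panct2, Gm2824, Gm14164 and E030030I06Rik, all at most 2.47 CPM in any library and under the count filter with all 8. Dclk1 also lost its call without this library. All other called genes named above with their own values stayed called, with Zeb1 at an adjusted p of 0.0414.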

How the data were processed

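Pituitary RNA of 4 WT and 4 200H older females was sequenced as unstranded, single-end, poly(A) TruSeq libraries. Per the methods and the labels, the authors aligned reads to mm10 with STAR 2.7.1a and made the deposited counts per gene with HTSeq 0.9.1 (union mode, no strand, Ensembl 87). The authors' normalized columns and their DESeq2 1.18 fold changes and p-values were not used. Young libraries were stranded and counted by another procedure, and 1 young WT column could not be tied to a replicate number. Depth was 4919587 to 12957678 counts. 

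Genes were filtered with filterByExpr, scaled by TMM and tested with edgeR 4.0.16 (quasi-likelihood F test, R 4.3.3, WT against 200H only, no covariates), with Benjamini-Hochberg adjustment over all genes tested and a threshold of 0.05. All adjusted p-values named without a tool come from this test. Each SE was derived from it too, as the size of the log2 fold change divided by the square root of the F statistic. The difference between cohorts is the genotype by cohort interaction in 1 fit over 15 libraries. Alternatives used DESeq2 1.42.0, voom with limma 3.58.1 and other filters, scalings and library sets. The code was tested on simulated data. No pair of libraries agreed within counting noise (chi-square per degree of freedom 6.45 to 20.8 over 12 pairs). The 8mers and promoters were searched in GENCODE M21 and RefSeq (GRCm38.p6), and Esrp1, Esrp2, Gm15884 and Gap43 had no promoter entry. 

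The members, the 43 gene lists and the fixed gene names were chosen with earlier results of these data known. Besides these names, the text draws on the 8 raised and 8 lowered protein-coding genes of smallest p whose genotypes did not overlap and whose mean reached 5 CPM in the higher group. It further draws on up to 4 called members of smallest p and 2 uncalled members of highest level per list, the 5 called genes of highest level, the 5 genes of smallest interaction p in each direction, and the 5 largest changes lost or gained without 200H replicate 3. Raised genes with 2 or more sites, and Pax7, Dclk1 and Pdgfrb, were chosen after their values were seen. Some genes that this rule takes are not reported here.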

Additional observations from a re-analysis of the deposited data

Results flagged for a closer look

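In several groups of 4 libraries, 1 library lay apart from the other 3 by a share of the whole range of the group above Dixon's critical value, a gap that chance gives in about 1 of 20 groups. The share was computed in both genotypes for each of 234 genes open to being named, so that chance alone would give many such gaps. Whether there were more of them than chance gives was not tested. Among the genes named in the text such a gap held for WT replicate 4 in Lhb (0.865 of the range, 219 CPM against 293 to 305), Pomc (0.833, 11847 CPM against 8660.4 to 9192.2), Tagln3 (0.909, 3.55 CPM against 5.30 to 5.48), Dcx (0.870, 6.56 CPM against 4.52 to 4.78) and Gm14377 (0.928, 0.753 CPM against 3.01 to 3.19). For WT replicate 1 it held in Kif1a (0.835, 387 CPM against 469 to 486), Grik5 (0.990, 87.1 CPM against 111.6 to 111.9) and Plxnb1 (0.846, 252 CPM against 271 to 274). WT replicate 2 was low in Cga (0.906, 1184 CPM against 1505 to 1538) and was the 1 WT library with a count of Bpifa2 (1.0 of the range, 0.0842 CPM against 0). The fit without WT replicate 2 left Cga at an adjusted p of 0.0639.

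Of the 200H libraries, replicate 3, the shallow one, was apart in Gm13648 (0.989, 0.391 CPM against 1.36 to 1.37), Dcx (0.894, 12.7 CPM against 16.2 to 16.6), Trhr (0.864, 8.40 CPM against 9.72 to 9.93) and Derl3 (0.873, 6.25 CPM against 4.84 to 5.02). Replicate 1 was apart in Scn7a (0.919, 1.83 CPM against 45.3 to 49.1) and Plxnb1 (0.835, 138 CPM against 169.6 to 175.9), replicate 2 in Dlk1 (0.876, 1788 CPM against 2265 to 2333), and replicate 4 in Grin2b (0.884, 7.42 CPM against 4.11 to 4.50). Gm13648, Dcx, Trhr, Derl3, Plxnb1 and Grin2b were called in every alternative in which they were tested.

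The effect of 200H differed between older and young pituitaries in Leng1, by 1.29 on the log2 scale (adjusted p = 0.00751 for the interaction, edgeR), and in Gm14377, by 3.07 (adjusted p = 0.0319). Gm14377 was at 0.753 to 3.19 CPM in older WT and was not called in the older cohort.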

How the results depend on the processing

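The count of 1825 called genes ranged from 1159 without WT replicate 2 to 1826 without WT replicate 4 when single libraries were left out, and WT replicate 2 was the only single library whose absence moved it by more than 1.5 times. It was 1286 without 200H replicate 3 and 1232 without 200H replicate 4. It was 1949 with DESeq2, 1999 with voom, 2449 without a filter on low counts, 1519 with a mean of at least 50 counts and 2269 with the 200M libraries in the fit. Scaling to the upper quartile gave 1826 (1098 raised) and removing the length trend 1843 (1004 raised). The alternatives that leave out several libraries were chosen after seeing the data, and without both shallow libraries 947 genes were called, and without the 3 libraries low in immediate early genes 1476. No gene called both with all 8 libraries and in an alternative had opposite signs. Zeb1 was at 0.30 to 0.36 without single libraries, always called, but 0.35 (adjusted p = 0.0552) without both shallow libraries and 0.26 (adjusted p = 0.12) without the 3 libraries low in immediate early genes. The cause was not tested, and fewer libraries enter these fits.

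The labels do not say whether the replicate numbers pair the mice. Deviations of same-numbered WT and 200H libraries from their group means correlated at 0.130, −0.527, 0.215 and −0.0633 over 11402 genes. These values cannot decide whether the mice were paired. With the numbers as a replicate block 1401 genes were called, Zeb1 at 0.33 (adjusted p = 0.0357), and 0 genes in the interaction with cohort. That interaction gave 2 genes, 9 with DESeq2, 1 with a mean of at least 50 counts, and 0 (without the unnumbered young WT library) to 5 (without young 200H replicate 3) without single libraries, with 1 without older 200H replicate 3 or 4, older WT replicate 3, young 200H replicate 1, 2 or 4 and young WT replicate 1 or 2.

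Of 127 called genes open to being named, 85 were called under every alternative, 244 of their 2514 values were no longer called, and 0 changed sign while called. Of 1994 values of uncalled genes 84 became called. Of 1720 counts over gene lists 296 moved by more than 1.5 times. Levels below a few CPM rest on few counts in the shallow libraries, and differences there may be missed.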
